A study of Rattus rattus with 8 samples.

Results

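The transcripts described here are those of 10 enzymes of mitochondrial beta-oxidation, chosen by gene name (Acadvl, Acadl, Acadm, Acads, Hadha, Hadhb, Hadh, Acaa2, Eci1 and Decr1) from the 30957 genes of the table. Each name matched 1 gene, and all 10 had enough counts to be among the 12983 genes tested. They were measured by RNA sequencing in the tetraploid (4n) and diploid (2n) fractions of neonatal rat cardiomyocyte cultures, with 4 libraries per group from independent experiments. Both groups came from SD rats 1 to 3 days after birth. The SD strain belongs to Rattus norvegicus, although the labels name Rattus rattus. Differential adherence, by which fibroblasts are left on an earlier dish, preceded 24 h of culture in 0.2 mM AraC, which blocks DNA synthesis, with Insulin-Transferrin-Selenium. After serum starvation they spent 48 h at 1% oxygen, and were stained with 2 µg/mL Hoechst 33342 and sorted by DNA content. Every library is hypoxic, so the comparison is of 4n with 2n cells under 1% oxygen and not of hypoxia with normal oxygen. A 4n signal can come from a tetraploid nucleus, a binucleated cell, a cell in G2 or M phase or a pair of 2n cells stuck together, which the sort as labelled does not separate.

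Beta-oxidation shortens fatty acyl-CoA in the mitochondrial matrix by repeated rounds of the same steps, a dehydrogenation, a hydration, a further dehydrogenation and a thiolytic cleavage that releases acetyl-CoA. The electrons removed pass to the respiratory chain, so the pathway depends on oxygen. The adult heart draws much of its energy from it, while the fetal heart relies more on glucose and lactate and switches around birth.

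The libraries held 15326219 to 16885512 counts in 4n and 14783521 to 21033772 in 2n. Genes of the mitochondrial chromosome took 24.1% to 25.9% of the counts in 4n replicates 2, 3 and 4, 3.71% in 4n replicate 1 and 2.87% to 3.82% in the 2n libraries. The labelled cell type was checked against 11 cardiomyocyte markers, whose summed level ranged from 4123 to 30690 CPM (counts relative to library size, scaled by the TMM method) in 4n and from 504 to 966 CPM in 2n. The 7 fibroblast markers summed to 29400 to 51430 CPM in 4n and 44140 to 57510 CPM in 2n. Per length, as the deposited FPKM (counts relative to gene length and library total), the cardiomyocyte markers summed to 2096 to 12070 in 4n and 343 to 511 in 2n. Over all genes tested the median log2 of 4n over 2n was -0.20 on FPKM, against -0.01 on TMM-scaled counts. FPKM sums are therefore best compared within a library. The fibroblast markers summed to 4775 to 10420 FPKM in 4n and 9535 to 12200 FPKM in 2n, and exceeded the cardiomyocyte sum in every library but 4n replicate 3. In such bulk samples a change in the number of cells of a type and a change in RNA per cell cannot be told apart.

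All 10 transcripts had a higher mean in 4n than in 2n cells, by 1.24-fold to 2.48-fold, and none passed the test over all genes. The fold was above 2 for the long-, medium- and short-chain acyl-CoA dehydrogenases Acadl, Acadm and Acads. It was 1.57 to 1.80 for Acadvl, Decr1, Eci1 and Acaa2, and 1.24 to 1.44 for the subunits of the trifunctional protein, Hadha and Hadhb, and for Hadh. With edgeR's quasi-likelihood test 0 of 10 passed at a Benjamini-Hochberg adjusted p under 0.05, where 2.67% of all genes tested were called higher and 0.0077% lower in 4n. By the unadjusted p alone, under 0.05, 8 of the 10 were higher and 0 lower in 4n, against 12.6% and 4.82% of all genes. A positive log2 fold change was found for 10 of 10 members and 48.2% of all genes. The median log2 fold change (4n over 2n) of the 10 was 0.68, against -0.01 over all genes tested. With the replicate number as a block, Eci1 was the 1 of 10 to pass (edgeR adjusted p = 0.0396), where 4.27% of all genes were called higher and 0.608% lower. DESeq2 called 6 of 10 higher, against 6.62% of all genes, and limma-voom called 0 of 10 and 0 of all genes. Without 4n replicate 1, edgeR called 6 of 10 higher, against 6.64% of all genes. The same 6 were called in both cases: Acadvl, Acadl, Acadm, Acads, Eci1 and Decr1. Leaving out any other single library gave 0 of 10. Without 4n replicate 4 or any 1 of the 2n libraries, 0 of all genes passed as well. With the block, 6 of 10 were called without the pair of replicate 1, against 9.65% of all genes. Without that of replicate 3, 2 of 10 were called, against 4.29%. Without that of replicate 2 or 4, 0 of 10 and 0 of all genes passed.

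**Figure D1:**
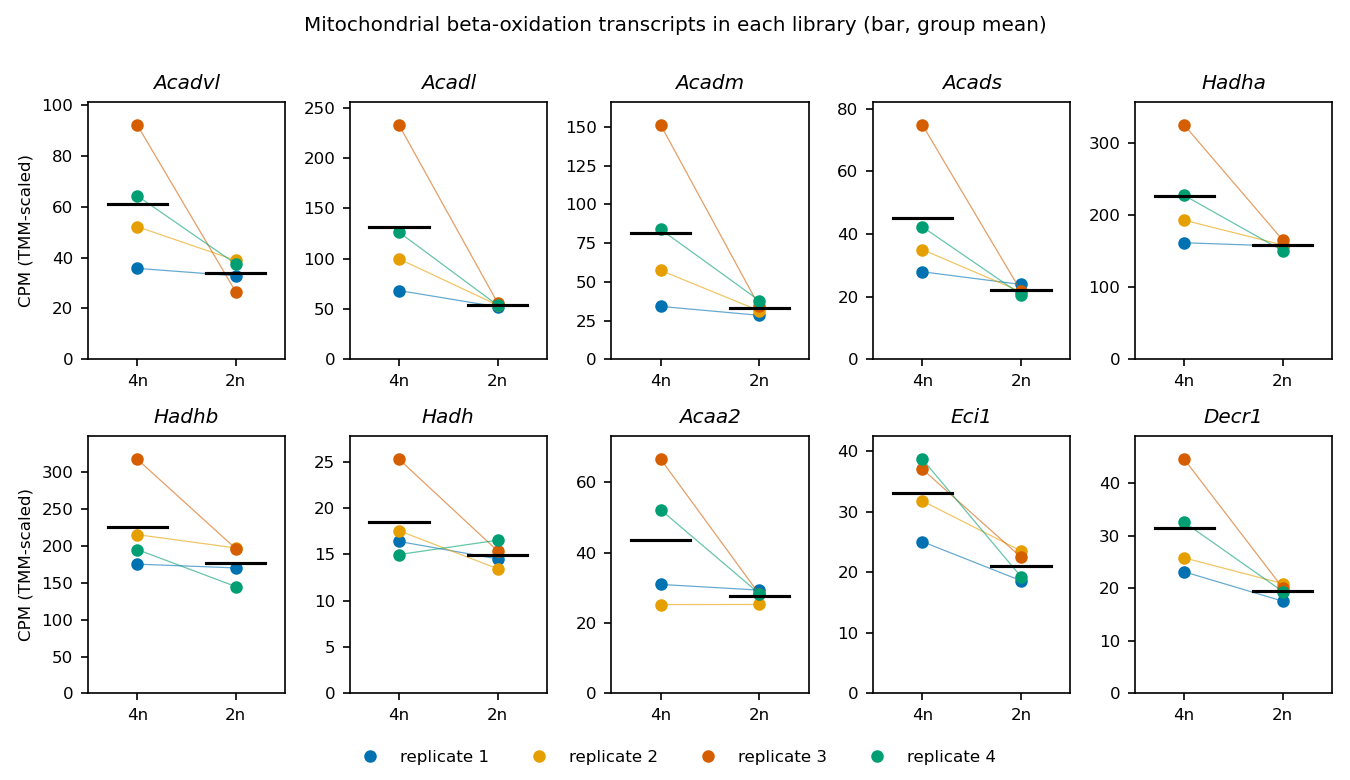
Level of each beta-oxidation transcript in CPM (counts relative to library size, TMM-scaled, linear axes from 0) in the 4n and 2n libraries. Points are single libraries coloured by replicate number, thin lines join libraries of the same number and bars are group means; 4n replicate 3 is the highest 4n point in 9 of 10 panels.

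The acyl-CoA dehydrogenases carry out the opening step of each round, and differ in the length of the acyl chain they take. Acadl (chromosome 9, 73833388 to 73871888, Rnor_6.0) encodes the long-chain enzyme. It stood at 68.3, 99.8, 233 and 126 CPM in 4n replicates 1 to 4, against 52.1, 53.9, 56.3 and 53.8 CPM in 2n. The 2n libraries lay within a factor of 1.08 of each other, the 4n libraries within a factor of 3.41, and the groups did not overlap. Its log2 fold change was 1.29 ± 0.32 (SE, edgeR adjusted p = 0.0752).

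Acadm (chromosome 2, 260124418 to 260148589) encodes the medium-chain enzyme. It stood at 34.1, 57.4, 151 and 83.9 CPM in 4n replicates 1 to 4, against 28.4, 31.3, 34.1 and 37.9 CPM in 2n. Replicate 1 of 4n lay within the 2n range and the other 4n libraries above it. The log2 fold change was 1.31 ± 0.39 (SE, edgeR adjusted p = 0.126). This was the largest fold among the 10 and also the one with the widest spread, a factor of 4.44 between the lowest and the highest 4n library.

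Acads (chromosome 12, 47254484 to 47263747), the short-chain enzyme, stood at 27.9, 35.0, 74.9 and 42.3 CPM in 4n replicates 1 to 4, against 23.9, 21.6, 21.8 and 20.7 CPM in 2n. Every 4n library was above every 2n library, and the log2 fold change was 1.03 ± 0.27 (SE, edgeR adjusted p = 0.0915). Acadvl (chromosome 10, 56619303 to 56624526), which encodes the membrane-bound enzyme for very long chains, stood at 35.8, 52.2, 92.2 and 64.4 CPM in 4n, against 32.9, 38.9, 26.5 and 37.5 CPM in 2n. Its 4n replicate 1 fell within the 2n range. The log2 fold change was 0.85 ± 0.27 (SE, edgeR adjusted p = 0.149).

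Hadha and Hadhb encode the alpha and beta subunits of the mitochondrial trifunctional protein, which carries out the later steps on long chains. They are neighbours on chromosome 6: Hadhb lies at 27555412 to 27582995 and Hadha at 27589657 to 27629175, with 6662 bp from the end of one to the start of the other. Hadha stood at 162, 193, 325 and 228 CPM in 4n replicates 1 to 4, against 157, 159, 166 and 151 CPM in 2n. Hadhb stood at 175, 215, 318 and 195 CPM in 4n, against 170, 197, 196 and 145 CPM in 2n. For both, the groups overlapped through 4n replicate 1, and for Hadhb through replicate 4 as well. The log2 fold changes were 0.52 ± 0.20 for Hadha and 0.35 ± 0.20 for Hadhb (SE, edgeR adjusted p = 0.225 and 0.398).

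Hadh (chromosome 2, 236353445 to 236395067) encodes the hydroxyacyl-CoA dehydrogenase for shorter chains, and had the smallest fold of the 10. It stood at 16.4, 17.6, 25.3 and 15.0 CPM in 4n replicates 1 to 4, against 14.5, 13.5, 15.4 and 16.5 CPM in 2n. Replicate 4 of 4n was below its 2n partner. The log2 fold change was 0.31 ± 0.18 (SE, edgeR adjusted p = 0.415). Acaa2 (chromosome 18, 70733872 to 70762395), the matrix thiolase that releases acetyl-CoA, stood at 31.0, 25.3, 66.6 and 52.2 CPM in 4n, against 29.4, 25.3, 28.3 and 28.4 CPM in 2n. The 4n libraries fell apart into replicates 3 and 4, well above the 2n range, and replicates 1 and 2, close to it (log2 fold change 0.65 ± 0.28 SE, edgeR adjusted p = 0.272).

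Eci1 and Decr1 encode auxiliary enzymes, an isomerase and a reductase that move or remove double bonds of unsaturated fatty acids so that these can enter the common steps. Eci1 (chromosome 10, 13797562 to 13810913) stood at 25.0, 31.8, 37.0 and 38.6 CPM in 4n replicates 1 to 4, against 18.6, 23.5, 22.5 and 19.3 CPM in 2n. The groups did not overlap. It had the smallest p of the 10 and the narrowest 4n spread, a factor of 1.54, and its log2 fold change was 0.66 ± 0.16 (SE). The edgeR adjusted p of 0.0703 became 0.0396 under the block, and lay between 0.00975 and 0.218 over the alternatives. It was the one member highest in 4n replicate 4 rather than replicate 3. Decr1 (chromosome 5, 29573898 to 29601748) stood at 23.2, 25.8, 44.6 and 32.6 CPM in 4n, against 17.6, 20.9, 20.1 and 19.4 CPM in 2n. Its groups did not overlap either, and its log2 fold change was 0.69 ± 0.20 (SE, edgeR adjusted p = 0.121).

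Groups without overlap were thus found for Acadl, Acads, Eci1 and Decr1, 4 of 10, against 7.68% of all genes tested with every 4n library above every 2n library. Of the 10, 8 were higher in 4n in all 4 pairs, against 20.2% of all genes. The exceptions were Hadh in the pair of replicate 4 (log2 difference -0.14) and Acaa2 in the pair of replicate 2 (-0.0009).

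**Figure D2:**
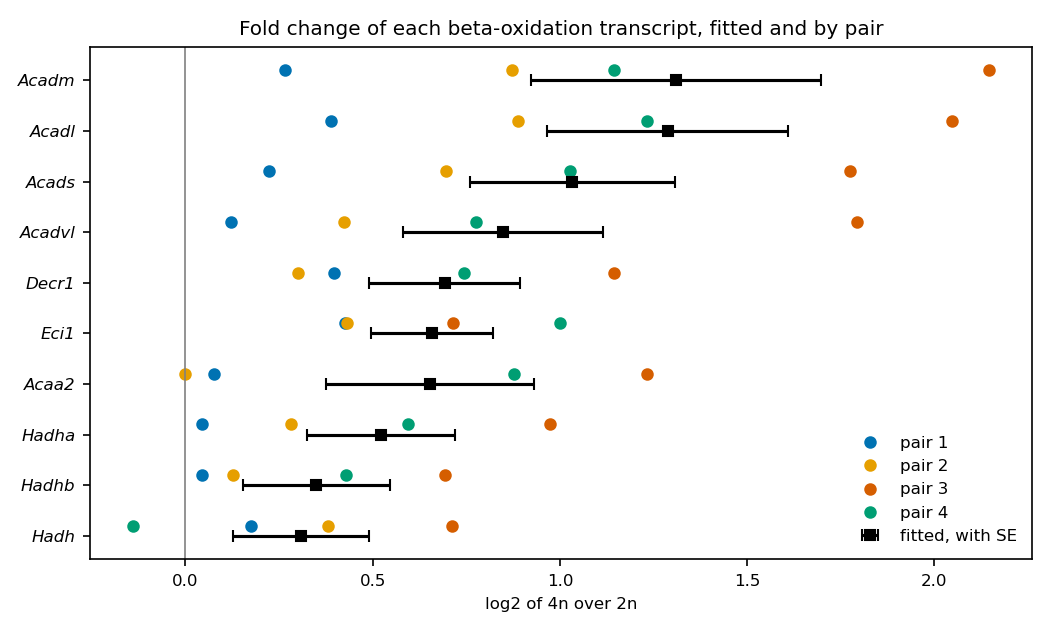
Log2 of 4n over 2n for each transcript, sorted by the fitted value. Squares are fitted log2 fold changes with their standard error as bars, and circles are the differences in log2 CPM of the 4 pairs; the acyl-CoA dehydrogenases are at the top, between 0.85 and 1.31, and Hadhb and Hadh at the bottom, at 0.35 and 0.31.

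The size of the difference depended on the pair. The median of the 10 log2 differences was 0.20, 0.40, 1.19 and 0.83 for the pairs of replicates 1 to 4, where the median over all genes tested lay between -0.0167 and -0.0002. In the pair of replicate 1 all 10 were above 0, but the largest was that of Eci1, at 0.43, and Hadha and Hadhb were at 0.04. In the pair of replicate 3 the range was 0.69 (Hadhb) to 2.15 (Acadm). Acadm, Acadl, Acadvl and Acads led in the pair of replicate 3. Eci1 and Decr1 led in the pair of replicate 1, where Decr1 at 0.397 was close to Acadl at 0.390.

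The summed level of the 10 transcripts was 599, 753, 1368 and 878 CPM in 4n replicates 1 to 4, against 545, 585, 587 and 529 CPM in 2n. That is 900 ± 332 CPM in 4n and 561 ± 29.0 CPM in 2n (SD, n = 4 each). The SD was larger in 4n than in 2n for each of the 10 transcripts. In 4n, replicate 1 stood close to the 2n libraries and replicate 3 far above them.

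Levels of different genes were compared per length, as the deposited FPKM. In 2n cells the order was led by Hadhb at 85.4 ± 12.1, Hadha at 58.3 ± 2.28 and Acadl at 40.1 ± 0.768 FPKM (SD, n = 4), and these did not overlap. Acadm, Decr1, Acadvl, Acaa2, Eci1 and Acads followed between 18.3 and 13.5 FPKM, each overlapping its neighbour in the order. Hadh was last at 9.80 ± 0.747 FPKM, below all others. In 4n cells Hadhb was again first at 90.7 ± 17.6 FPKM, but Acadl was next at 80.0 ± 36.1 and Hadha came after it at 69.5 ± 15.4 FPKM (SD, n = 4). Their ranges overlapped, and each of these orders held in 3 of 4 libraries. Acadm followed at 36.8 ± 19.8 FPKM, and Hadh was last at 10.2 ± 2.01 FPKM.

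As a share of the members' summed FPKM, Acadl took 16.0%, 18.4%, 23.2% and 19.7% in 4n replicates 1 to 4, against 13.7%, 13.2%, 13.7% and 14.4% in 2n. The groups did not overlap. Hadha took 18.8%, 17.7%, 16.1% and 17.6% in 4n, against 20.5%, 19.2%, 20.0% and 20.0% in 2n, again without overlap. Acads took 5.41%, 5.35%, 6.17% and 5.47% in 4n, against 5.21%, 4.36%, 4.40% and 4.58% in 2n, also without overlap. The shares of all other members overlapped between the groups. Shares add up to a whole, so a larger share of one lowers those of the others. No test was run on them.

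A pair of ratios within a library, which need no scaling between libraries, was tested. The ratio of Acadl to Acadvl FPKM was 2.84, 2.85, 3.76 and 2.92 in 4n replicates 1 to 4, against 2.36, 2.06, 3.16 and 2.13 in 2n. It was higher in 4n in 4 of 4 pairs, by 0.36 on the log2 scale, but the groups overlapped through 2n replicate 3 (two-sided exact permutation, p = 0.114, or 0.229 adjusted over the 2 ratios; the smallest possible is 0.0286). The ratio of Hadha to Hadhb, whose products form 1 complex, was 0.706, 0.686, 0.784 and 0.892 in 4n, against 0.706, 0.615, 0.645 and 0.795 in 2n. The difference was 0.15 on the log2 scale and the groups overlapped (two-sided exact permutation, p = 0.286 before and after adjustment). Sign flips within pairs gave p = 0.125 for both in an exact test, the smallest that 4 pairs allow.

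The members were next set beside the genes around them in metabolism. For each list below, the shares over all genes tested are 48.2% with a positive log2 fold change, 12.6% higher at an unadjusted p under 0.05, 2.67% called higher in edgeR and 6.62% called higher by DESeq2. Electron transfer flavoprotein and its oxidoreductase take the electrons from the acyl-CoA dehydrogenases. Among 9 tested genes of electron transfer and other matrix enzymes of beta-oxidation, 0 passed in edgeR, 4 were higher at an unadjusted p under 0.05, DESeq2 called 1, and the median log2 fold change was 0.35. Etfb and Etfa, the flavoprotein subunits, had log2 fold changes of 1.03 ± 0.28 and 0.61 ± 0.20 (SE, edgeR adjusted p = 0.0979 and 0.152). Etfa passed under the block, with an edgeR adjusted p of 0.0453 (0.0148 to 0.322 over the alternatives).

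In the carnitine shuttle and activation list, which brings fatty acids to the matrix, 1 of 6 passed in edgeR, against 2.67% of all genes, 5 were higher at an unadjusted p under 0.05, DESeq2 called 1, and the median log2 fold change was 0.83. It was Cpt1b, the muscle carnitine palmitoyltransferase, at 8.27, 17.7, 47.4 and 28.5 CPM in 4n replicates 1 to 4, against 6.04, 3.30, 3.66 and 7.33 CPM in 2n. It rose by 2.32 ± 0.51 on the log2 scale (SE, edgeR adjusted p = 0.0481), and did not pass under the block, at 0.0798 (6.46e-05 to 0.276 over the alternatives).

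Peroxisomes hold a beta-oxidation pathway of their own, with other enzymes. Among its 10 tested genes 0 passed in edgeR or DESeq2 and 0 had an unadjusted p under 0.05. Log2 fold changes were positive for 9 of the 10, with a median of 0.07. Scp2, a thiolase and sterol carrier, stood 0.31 ± 0.24 higher on the log2 scale (SE, edgeR adjusted p = 0.544). By pair the median of this list lay between -0.03 and 0.23, against 0.20 to 1.19 for the mitochondrial enzymes. The difference between the lists was not tested.

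Acyl-CoA dehydrogenases of amino acid breakdown belong to the same protein family. Of 4, 0 passed in edgeR, DESeq2 called 1, and by the unadjusted p under 0.05 Ivd was higher and Acadsb lower. Ivd, of leucine breakdown, was at 39.1 ± 21.1 CPM in 4n and 18.0 ± 2.40 CPM in 2n, and Acadsb, the short/branched chain enzyme, at 10.5 ± 1.39 CPM in 4n and 14.6 ± 1.52 CPM in 2n (SD, n = 4 each). On the log2 scale Ivd differed by 1.12 ± 0.34 and Acadsb by -0.47 ± 0.15 (SE, edgeR adjusted p = 0.137 and 0.158). Acadsb was lower in 4n in 4 of 4 pairs, opposite in sign to all 10 beta-oxidation enzymes.

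The tricarboxylic acid cycle burns the acetyl-CoA that beta-oxidation makes. All 14 of its genes had positive log2 fold changes with a median of 0.88, 0 passed in edgeR, 12 were higher at an unadjusted p under 0.05 and DESeq2 called 7, against 48.2% positive, 12.6% and 6.62% of all genes. Idh3g and Mdh2, an isocitrate dehydrogenase subunit and the malate dehydrogenase of the matrix, had log2 fold changes of 1.00 ± 0.26 and 1.09 ± 0.31 (SE, edgeR adjusted p = 0.0885 and 0.109). Ketone body enzymes, 5 tested, had a median of 0.87, with 0 passing in edgeR, 4 higher at an unadjusted p under 0.05 and 1 called by DESeq2. Bdh1, which interconverts the ketone bodies acetoacetate and hydroxybutyrate, differed by 1.57 ± 0.51 on the log2 scale (SE, edgeR adjusted p = 0.162).

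Genes of the mitochondrial outer membrane and import, which all mitochondria need, had a median of 0.33 over 9 tested, with 0 passing in edgeR, 2 higher at an unadjusted p under 0.05 and 1 called by DESeq2, against 12.6% and 6.62% of all genes. Tomm20, an import receptor, and Vdac3, a channel, had log2 fold changes of 0.45 ± 0.13 and 0.60 ± 0.24 (SE, edgeR adjusted p = 0.129 and 0.246). Fatty acid synthesis and storage ran at a median of -0.05 over 7 tested, with 0 passing in edgeR, 2 higher at an unadjusted p under 0.05 and 1 called by DESeq2. Those 2 were Acacb and Mlycd, which make and break down malonyl-CoA, the inhibitor of carnitine palmitoyltransferase. Their log2 fold changes were 2.02 ± 0.50 and 0.65 ± 0.22 (SE, edgeR adjusted p = 0.0704 and 0.168), and Mlycd passed under the block, at 0.0409 (0.0196 to 0.380 over the alternatives). The limma-voom fit called 0 genes of any of these lists. Positive log2 fold changes were found for 8 of 9 genes of electron transfer and other matrix enzymes and 8 of 9 of outer membrane and import. They were found for 6 of 6 of the carnitine shuttle and 4 of 5 of ketone bodies. For amino acid breakdown they were 3 of 4, and for synthesis and storage 3 of 7.

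**Figure D3:**
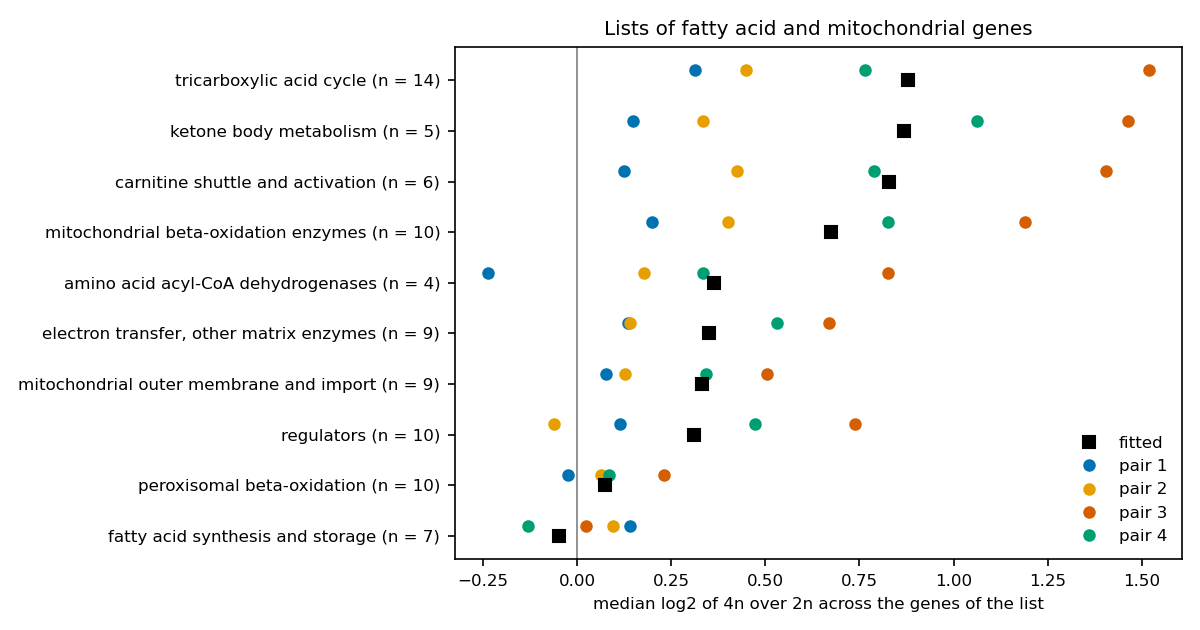
Median log2 of 4n over 2n across the genes of each list, with the number of genes tested in brackets. Squares are medians of the fitted log2 fold changes and circles medians of the log2 CPM differences in each pair; the mitochondrial lists of beta-oxidation, the carnitine shuttle and the tricarboxylic acid cycle stand at 0.68, 0.83 and 0.88, those of electron transfer with other matrix enzymes and of outer membrane and import at 0.35 and 0.33, and peroxisomal beta-oxidation at 0.07.

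Transcription of beta-oxidation genes is known to be driven by the PPAR and ERR nuclear receptors with the coactivators PGC-1alpha and PGC-1beta. Of 10 regulators tested 2 passed as higher in 4n in edgeR, against 2.67% of all genes. Under the block 3 passed, against 4.27%, and DESeq2 called 4, against 6.62%. Log2 fold changes were positive for 7 of the 10, against 48.2%, with a median of 0.31, or 0.03 without 4n replicate 3. The PPAR receptor genes Ppara, Ppard and Pparg differed by 0.40 ± 0.47, 0.22 ± 0.18 and -0.29 ± 0.51 (SE, edgeR adjusted p = 0.701, 0.552 and 0.81). The ERR receptor gene Esrra, named after its values were seen, differed by 0.73 ± 0.22 (SE, edgeR adjusted p = 0.127). Its mean was 39.4 ± 13.4 CPM in 4n and 23.7 ± 1.77 CPM in 2n (SD). Rxra and Nrf1 were lower in 4n in every pair but did not pass, at -0.26 ± 0.12 and -0.20 ± 0.11 (SE, edgeR adjusted p = 0.324 and 0.387). Ppargc1a, which encodes PGC-1alpha, stood at 3.12, 6.17, 22.0 and 7.38 CPM in 4n replicates 1 to 4, against 0.549, 0.174, 0.689 and 1.28 CPM in 2n. It had 602 counts over the 8 libraries together, and its fold rests on low counts in 2n. Esrrg, an ERR receptor, stood at 9.56, 12.5, 65.8 and 28.6 CPM in 4n, against 2.62, 0.998, 2.23 and 3.97 CPM in 2n. Neither overlapped between the groups, and the log2 fold changes were 3.83 ± 0.72 and 3.57 ± 0.68 (SE, edgeR adjusted p = 0.0306 for both). Both calls were lost on leaving out 4n replicate 4 or any 1 of the 2n libraries, when 0 genes of the table passed, and the highest adjusted p over the alternatives was 0.143 and 0.204. The regulator gained under the block, named after its values were seen, was Ppargc1b, which encodes PGC-1beta, at 10.3, 11.5, 14.4 and 5.99 CPM in 4n replicates 1 to 4, against 5.37, 6.12, 5.89 and 4.02 CPM in 2n. Its groups overlapped through 4n replicate 4, and its edgeR adjusted p was 0.0343 under the block and 0.102 without it (0.0201 to 0.243 over the alternatives).

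The levels of cell type markers are given beside the members. All 11 cardiomyocyte markers passed as higher in 4n in edgeR, against 2.67% of all genes, by a median of 4.36 on the log2 scale. Under the block 10 passed, against 4.27%, and over the alternatives their highest adjusted p ran from 0.122 to 0.218. Their summed level was 4123, 8037, 30690 and 11230 CPM in 4n replicates 1 to 4, against 966, 504, 760 and 955 CPM in 2n. In 4n the order of the libraries by this sum (1, 2, 4, 3) was that of the beta-oxidation transcripts summed in CPM. It was not that of their summed FPKM, at 325 in 4n replicate 1 and 320 in 4n replicate 2. The marker FPKM sums of these libraries were 2096 and 3332. In 2n the orders by CPM differed: replicate 2 had the lowest marker sum and 585 CPM of beta-oxidation transcripts, while replicate 1 had the highest marker sum and 545 CPM.

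Endothelial markers summed to 67.0, 75.0, 84.9 and 386 CPM in 4n replicates 1 to 4, against 26.4 to 54.1 CPM in 2n. Their sum was highest in replicate 4, where that of the members was highest in replicate 3. In edgeR 0 of 5 passed, 4 were higher at an unadjusted p under 0.05 and DESeq2 called 3. Under the block 4 passed, against 4.27% of all genes. Of 7 fibroblast markers 0 passed in edgeR, and all 7 had negative log2 fold changes with a median of -0.54. At an unadjusted p under 0.05, 1 was lower, against 4.82% of all genes. DESeq2 called 1 lower, where it called 93 of the 12983 genes tested lower. Under the block 2 passed as lower, against 0.608% of all genes. Smooth muscle and pericyte markers summed to 5330 to 10020 CPM in 4n and 5753 to 9536 CPM in 2n, and epicardial markers to 59.1 to 108 CPM in 4n and 63.0 to 115 CPM in 2n. Macrophage markers summed to 0.358 to 6.12 CPM in 4n and 0.391 to 1.89 CPM in 2n, with Cd163 at 0 in all libraries, and Schwann cell markers to 3.12 to 12.7 CPM in 4n and 3.92 to 5.68 CPM in 2n. Red blood cell markers were at or near 0, the highest sum being 0.149 CPM, and Alas2 was at 0 in all libraries. The part of these cell types and of the mitochondrial share in the beta-oxidation differences was not tested.

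**Figure D4:**
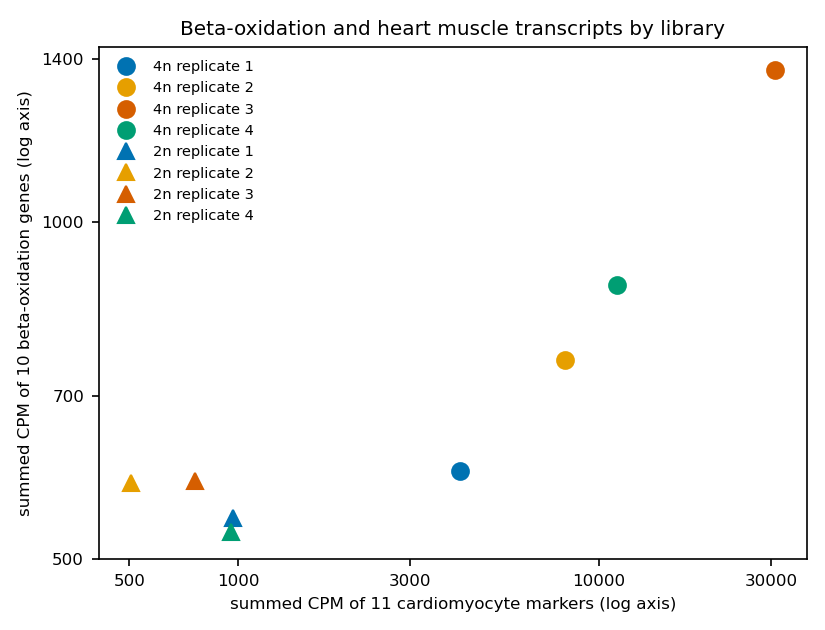
Summed CPM of the 10 beta-oxidation transcripts (vertical) against summed CPM of the 11 cardiomyocyte markers (horizontal), both on log axes, 1 point per library. The 4n libraries (circles) run from 599 to 1368 CPM of beta-oxidation transcripts and the 2n libraries (triangles) stay between 529 and 587 CPM.

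The members resembled each other over the 8 libraries to different degrees. The Pearson correlation of a member's log2 CPM with the mean standardised log2 CPM of the other 9 was highest for Acadl, at 0.995, and for Hadha and Decr1, at 0.990 and 0.986. It was lowest for Hadh, at 0.776, and Hadhb, at 0.835. Of 8706 other genes with a mean of at least 10 CPM, those most like the mean of the members included Sdha, Slc25a4, Got2 and Trak2. Their correlations lay between 0.9959 and 0.9996 over 8 libraries, which share their groups and pairs. Sdha encodes the flavoprotein subunit of succinate dehydrogenase. Slc25a4 encodes the heart and muscle ADP/ATP carrier, Got2 the mitochondrial aspartate aminotransferase and Trak2 an adaptor for the transport of mitochondria. In edgeR 0 of these 4 passed, with log2 fold changes of 1.11, 0.91, 0.84 and 1.24 in that order (edgeR adjusted p from 0.107 to 0.134).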

How the data were processed

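The titles of the 8 messenger RNA libraries gave the group, 4 of 4n and 4 of 2n cells, and the replicate number. Alignment, per the submitters' processing notes, was with HISAT2 2.0.4 to Rnor_6.0, a build of Rattus norvegicus. How reads were counted, and with what strand setting, is not given in the sources used here. A table deposited by the authors gives raw counts and FPKM for every gene and library. For the 10 members, each deposited FPKM value equals the count over a fixed gene length and over the library total, mitochondrial chromosome included. Other genes were not checked for this. No member overlaps the position of another gene with counts above 0. Pex5 is listed at 0 in all 8 libraries, so a 0 can come from the counting.

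The fit on counts used edgeR 4.0.16 (R 4.3.3): filterByExpr, TMM scaling and a robust quasi-likelihood model of group. All tests were two-sided, with Benjamini-Hochberg adjustment across 12983 genes and a threshold of 0.05. Standard errors are the absolute log2 fold change over the square root of F. CPM values use TMM-scaled library sizes, and log2 CPM a prior count of 2. Pair differences subtract the 2n from the 4n log2 CPM of the same replicate number.

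Descriptions of same-numbered libraries begin with the same code, and their deviations from the group means correlated (0.43, 0.58, 0.27 and 0.65 for the 4 pairs). The numbers were therefore taken to pair the libraries. The fit with this number as a block was an alternative, beside RLE factors, total counts, no filter, no mitochondrial genes, DESeq2 1.42.0, limma 3.58.1 on counts (voom) or log2(FPKM + 1), and leaving out libraries or pairs. Chi-square values per degree of freedom between libraries of a group ran from 36.6 to 422, above sampling noise.

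The 10 members and all lists were chosen with earlier results of these data known. Named genes are the members, those of each further list past the threshold or otherwise the 2 with the smallest p, and the 5 genes most like the members over the libraries. Some genes this rule names are not reported here. List symbols were matched without regard to case.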

Additional observations from a re-analysis of the deposited data

Results flagged for a closer look

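The log2 ratio of Acadl to Acadvl in the 4n libraries was 1.51, 1.51, 1.91 and 1.55 for replicates 1 to 4. Replicate 3 stood apart from the others, with a gap of 0.901 of the range, above Dixon's critical value for 4 samples. It was the only one of 24 groups of 4 values checked to do so (the levels of the 10 transcripts and both ratios in each group), and chance flags about 1 in 20. In 2n this ratio was also highest in replicate 3, at 1.66 against 1.24, 1.04 and 1.09 in replicates 1, 2 and 4.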

How the results depend on the processing

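All 10 beta-oxidation transcripts had positive log2 fold changes under each of 20 alternatives. Of 200 values for single transcripts 21 passed the threshold only under the alternative and 179 stayed on the same side. The number called higher was 1 with the replicate block (Eci1), 6 with DESeq2, 0 to 6 on leaving out single libraries (6 without 4n replicate 1) and 0 to 6 on leaving out a pair with the replicate block (6 without replicate 1 and 2 without replicate 3). It was 0 under the others. The median log2 fold change was 0.53 to 0.81 without single libraries and 0.47 to 0.75 without pairs. It was 0.42 with total counts and 0.38 on FPKM, where the median of all genes shifted to -0.25 and -0.20. Relative to it the members' medians were 0.66 and 0.59, against 0.69 with TMM. Not set against that median, Hadhb was at 0.09 with total counts and 0.08 on FPKM, against 0.35 with TMM. Hadh was at 0.06 and 0.04, against 0.31.

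Over all genes, 347 were called higher and 1 lower. With the replicate block these counts were 554 and 79, with DESeq2 860 and 93, with limma-voom 0 and 0 (1456 and 691 at an unadjusted p under 0.05) and on FPKM 186 and 8. They were 0 to 870 higher and 0 to 90 lower without single libraries, and 0 to 1254 higher and 0 to 399 lower without pairs (558 and 50 without replicate 3). Genes called lower were 12 with total counts and 2 without mitochondrial genes. The cause of these changes was not tested. With the replicate block no other call on the members changed. Neither ratio passed under any alternative, and with 4 pairs sign flips could not. The rarest member, Hadh, had 205 to 353 counts per library, the lowest depth behind any value of the members.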
